A study of Rattus norvegicus with 5 samples.

Results

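The genes described here are the rat class II major histocompatibility complex (MHC) genes and their close partners in the mesenteric fat that surrounds the pancreas. They are 10 genes: the class II chains RT1-Bb, RT1-Ba, RT1-Da and RT1-Db1, the peptide exchange factors RT1-DMa and RT1-DMb, the invariant chain Cd74, the class II coactivator Ciita, and from class I the heavy chain RT1-A and the light chain B2m. Every probe set annotated with exactly 1 of these symbols was taken, which gave 17 of the 31042 non-control probe sets on the array, 14 of them for the 8 class II genes and 3 for the 2 class I genes. The 10 genes stand beside 14217 with a probe set of their own. All 17 probe sets had a mean above the log2 filter limit of 4.28 and entered the test over the whole array. For RT1-Db1 1370382_at this rested on standard replicate 2, at 5.75, as the other arrays read 4.05 to 4.14. The genes were chosen by an earlier look at the cafeteria minus standard log2 differences on these same arrays, led by RT1-Bb and RT1-A, so that difference is described below without a test.

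The samples came from male Wistar rats, an outbred stock, that were 7 weeks old at the start and housed singly. The 2 cafeteria samples, labelled as the obese group, came from rats kept for 30 days on a cafeteria diet in which fat supplied 66% of calories. The 3 standard samples, labelled as the lean group, came from rats kept for the same 30 days on standard chow in which fat supplied 8%. Each array held an independent sample of the whole depot, so fewer cells of a type and less RNA per cell cannot be told apart.

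Class II molecules are pairs of an alpha and a beta chain that display peptides from the endosomes of antigen-presenting cells, mainly dendritic cells, macrophages and B cells, to CD4 T cells. In the rat the RT1-B pair is the counterpart of human HLA-DQ and the RT1-D pair that of HLA-DR, and the chains are highly polymorphic. Newly made pairs are held by the invariant chain, whose last fragment is removed by the DM pair, and the genes of this route are switched on together by Ciita, which docks on a set of promoter elements known as the X and Y boxes. In fat tissue, class II is known from macrophages and dendritic cells and has also been described on fat cells.

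The tissue and the arrays were as follows. The 9 adipocyte markers measured, such as adiponectin (Adipoq), averaged 12.01 and 12.17 on the cafeteria arrays and 11.62 to 11.78 on the standard arrays on the log2 scale, and all 9 passed the filter. Standard replicate 1 also held transcripts of pancreatic acinar cells: 16 acinar markers averaged 4.79 and 4.66 on the cafeteria arrays, against 8.71 on standard replicate 1 and 4.50 and 4.53 on the other standard arrays. Array medians lay between 5.70 and 5.75. With only 2 and 3 arrays, the array number sets the precision of all values below.

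The promoters are shown because class II genes are known to share X and Y box elements, and not every window here holds their letters. RefSeq promoter windows on build GRCr8 were matched by symbol for 7 of the 10 genes. Letters were searched on either strand in the 250 bases before the start site. The Y box letters CTGATTGG stood in 4 of these genes, RT1-Bb, RT1-Ba, RT1-Da and RT1-Db1, and in 3.26% of 27457 promoters. Their inner letters ATTGG, which overlap the Y box, stood in all 7 matched genes and in 34.3% of promoters. The X box letters GCAAC were found in 4 genes, RT1-Ba, RT1-Da, RT1-Db1 and Cd74, against 29.6% of promoters, the letters GATGATG in 2, RT1-Db1 and RT1-DMa, against 3.32%, and the palindrome TGACGTCA in 1, RT1-Ba, against 1.70%. The windows below are 85 bases each, 5′ to 3′, at chr20:4604165-4604249 on the minus strand for RT1-Bb, chr20:4576944-4577028 on the plus strand for RT1-Ba, chr20:4515296-4515380 on the plus strand for RT1-Da, chr20:4560228-4560312 on the minus strand for RT1-Db1, chr20:4712352-4712436 on the minus strand for RT1-DMa, and chr18:56527101-56527185 on the plus strand for Cd74. Capitals mark matches to the letters named above.
RT1-Bb: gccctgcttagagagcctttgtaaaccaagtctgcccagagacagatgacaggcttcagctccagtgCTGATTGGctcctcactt
RT1-Ba: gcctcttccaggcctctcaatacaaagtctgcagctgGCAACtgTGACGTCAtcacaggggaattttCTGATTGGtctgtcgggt
RT1-Da: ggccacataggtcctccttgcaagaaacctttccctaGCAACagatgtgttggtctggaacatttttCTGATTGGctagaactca
RT1-Db1: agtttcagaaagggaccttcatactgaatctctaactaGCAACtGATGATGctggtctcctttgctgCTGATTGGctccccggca
RT1-DMa: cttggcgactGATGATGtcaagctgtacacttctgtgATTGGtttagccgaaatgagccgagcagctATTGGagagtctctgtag
Cd74: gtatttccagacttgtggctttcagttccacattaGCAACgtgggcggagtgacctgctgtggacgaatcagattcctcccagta
The windows of RT1-DMa and Cd74 lacked CTGATTGG and those of RT1-Bb and RT1-DMa lacked GCAAC, while ATTGG also stood in the class I gene B2m. In RT1-Ba, RT1-Da and RT1-Db1 the GCAAC letters lie upstream of the Y box letters. The matches describe the letters of the reference strain and are not binding data.

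Class II transcripts read lower on the cafeteria arrays for at least 1 probe set of each of the 8 class II genes. Of the 14 class II probe sets, 12 had a lower mean in cafeteria samples and 9 had both cafeteria arrays below all standard arrays. Over all 17 probe sets the diets failed to overlap in this direction for 11, where 10.8% of all non-control probe sets did so. Since the genes were chosen with this contrast known, nothing is read from these counts. The median difference, cafeteria minus standard, was -0.51 over the class II probe sets and -0.50 over all 17, beside 0.008 over all non-control probe sets. No probe set of the whole array passed an adjusted p of 0.05 (limma, 0% of 21729 tested, and at an unadjusted p under 0.05 there were 2754, 6.62% of all lower and 6.05% higher in cafeteria samples).

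**Figure D1:**
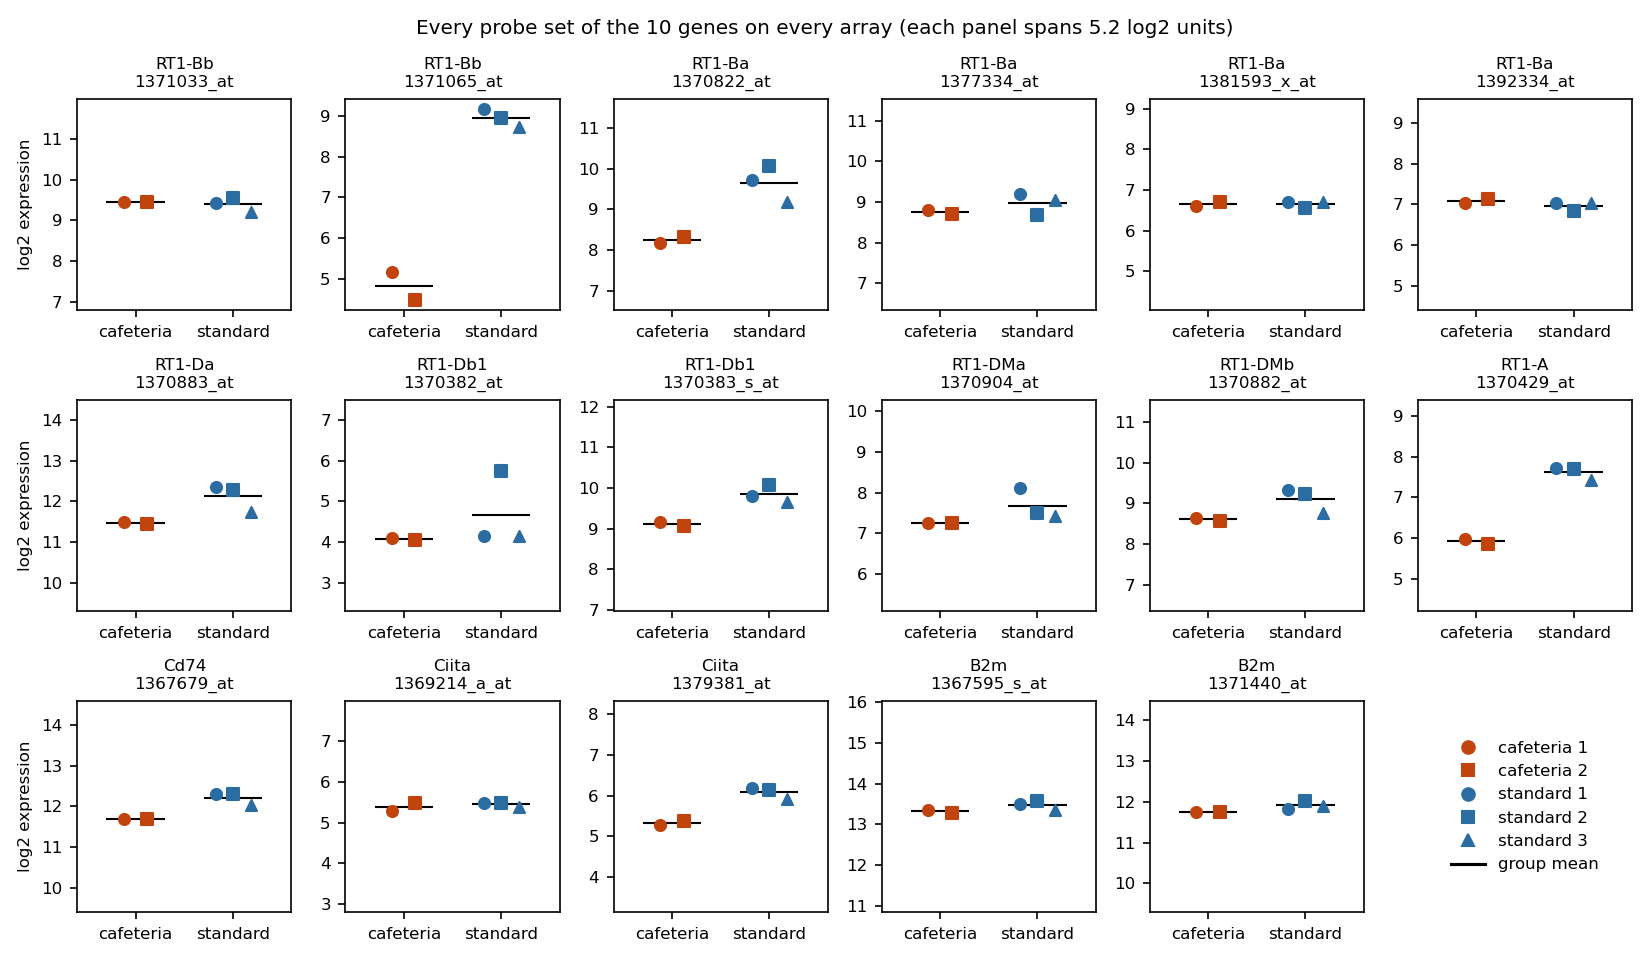
Log2 expression (vertical axis) of the 17 probe sets on the 2 cafeteria arrays (left) and the 3 standard arrays (right) of each panel; bars are group means and every panel spans the same number of log2 units. RT1-Bb 1371065_at stands apart with cafeteria values of 5.16 and 4.48, while RT1-Bb 1371033_at reads 9.44 on both cafeteria arrays and 9.21 to 9.56 on the standard arrays.

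The RT1-B pair held the widest difference and the widest disagreement between probe sets. RT1-Bb, the beta chain, had values of 5.16 and 4.48 on the cafeteria arrays for probe set 1371065_at, against 9.16, 8.95 and 8.72 on the standard arrays. Both cafeteria arrays lay far below every standard array. The cafeteria values lay near 4.28, the lower limit used to filter dim probe sets, so no fold is given. The difference was -4.13 ± 0.26 (SE), and leaving out cafeteria replicate 1 gave -4.47, leaving out cafeteria replicate 2 gave -3.79.

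The second RT1-Bb probe set, 1371033_at, showed no such gap. It read 9.44 on both cafeteria arrays, against 9.43, 9.56 and 9.21 on the standard arrays, so the cafeteria values fell inside the standard range. The difference was 0.046 ± 0.11, with a 95% interval of -0.26 to 0.35. The cafeteria pair held an identical value here, as 11.7% of probe sets did between these arrays, so its SD of 0 understates the spread. The 2 RT1-Bb probe sets thus differed in their diet difference by 4.17 ± 0.28. They disagree, and which of them follows the RT1-Bb transcript was not tested.

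RT1-Ba, the alpha partner, was covered by 4 probe sets, of which 1 separated the diets. Probe set 1370822_at read 8.17 and 8.33 on the cafeteria arrays, against 9.73, 10.06 and 9.17 on the standard arrays. The groups did not overlap, and the difference was -1.40 ± 0.29, or 2.64-fold lower. Probe set 1377334_at read 8.81 and 8.71 on the cafeteria arrays, against 9.20, 8.67 and 9.05 on the standard arrays, and the groups overlapped at a difference of -0.21 ± 0.18.

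The remaining RT1-Ba probe sets, 1381593_x_at and 1392334_at, were designed from the same transcript sequence and differed by -0.0095 ± 0.073 and 0.12 ± 0.080. Their arrays overlapped between diets, and their profiles over the 5 arrays were close to each other, with a root mean square distance of 0.062 log2 units after each was centred on its mean. The suffix of 1381593_x_at marks probes that may also bind other transcripts. A like caution holds for the _s_at suffix of RT1-Db1 1370383_s_at and B2m 1367595_s_at. Set against the other RT1-Ba probe sets, the diet difference of 1370822_at departed by -1.19 to -1.52 log2 units.

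In the RT1-D pair the alpha chain RT1-Da read 11.49 and 11.43 on the cafeteria arrays, against 12.36, 12.29 and 11.73 on the standard arrays. The groups did not overlap, although standard replicate 3 stood nearer to the cafeteria arrays than to the other standard arrays. The difference was -0.66 ± 0.22, or 1.58-fold lower.

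The beta chain RT1-Db1 gave 9.16 and 9.06 in cafeteria samples with probe set 1370383_s_at, against 9.81, 10.07 and 9.67 in standard samples. The groups lay apart, at a difference of -0.74 ± 0.14. Probe set 1370382_at, designed from the same transcript sequence, read near that lower limit of 4.28: 4.11 and 4.05 on the cafeteria arrays and 4.14, 5.75 and 4.14 on the standard arrays. Standard replicate 2 alone stood high, and the difference of -0.59 ± 0.58 was -0.059 without that array. The diets did not overlap here, but the nearest values were 4.11 and 4.14. Between the RT1-Db1 probe sets the diet difference differed by 0.14 ± 0.55, and their centred profiles lay 0.47 apart.

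RT1-DMa and RT1-DMb form the DM pair, which releases the invariant chain fragment so that antigen peptides can bind. RT1-DMa read 7.26 and 7.25 on the cafeteria arrays, against 8.11, 7.51 and 7.43 on the standard arrays, a difference of -0.43 ± 0.24 that was -0.21 without standard replicate 1. RT1-DMb read 8.65 and 8.56 on the cafeteria arrays, against 9.32, 9.24 and 8.77 on the standard arrays, a difference of -0.50 ± 0.19. Neither pair of groups overlapped, and for both genes standard replicate 3 was the standard array closest to the cafeteria arrays.

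Cd74, the invariant chain that escorts class II pairs to the endosome, read 11.68 and 11.70 on the cafeteria arrays, against 12.30, 12.30 and 12.04 on the standard arrays. The cafeteria arrays were nearly equal and lay below all standard arrays, at a difference of -0.52 ± 0.099, or 1.44-fold lower.

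Ciita, the coactivator that sets class II transcription, was covered by 2 probe sets that did not give the same difference. Probe set 1379381_at read 5.27 and 5.39 on the cafeteria arrays, against 6.18, 6.14 and 5.92 on the standard arrays. The groups did not overlap, and the difference was -0.75 ± 0.10. Probe set 1369214_a_at read 5.29 and 5.49 on the cafeteria arrays, against 5.49, 5.49 and 5.38 on the standard arrays. Here the groups overlapped, and the difference was -0.063 ± 0.080, with 0.036 when cafeteria replicate 1 was left out and -0.16 when cafeteria replicate 2 was.

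**Figure D2:**
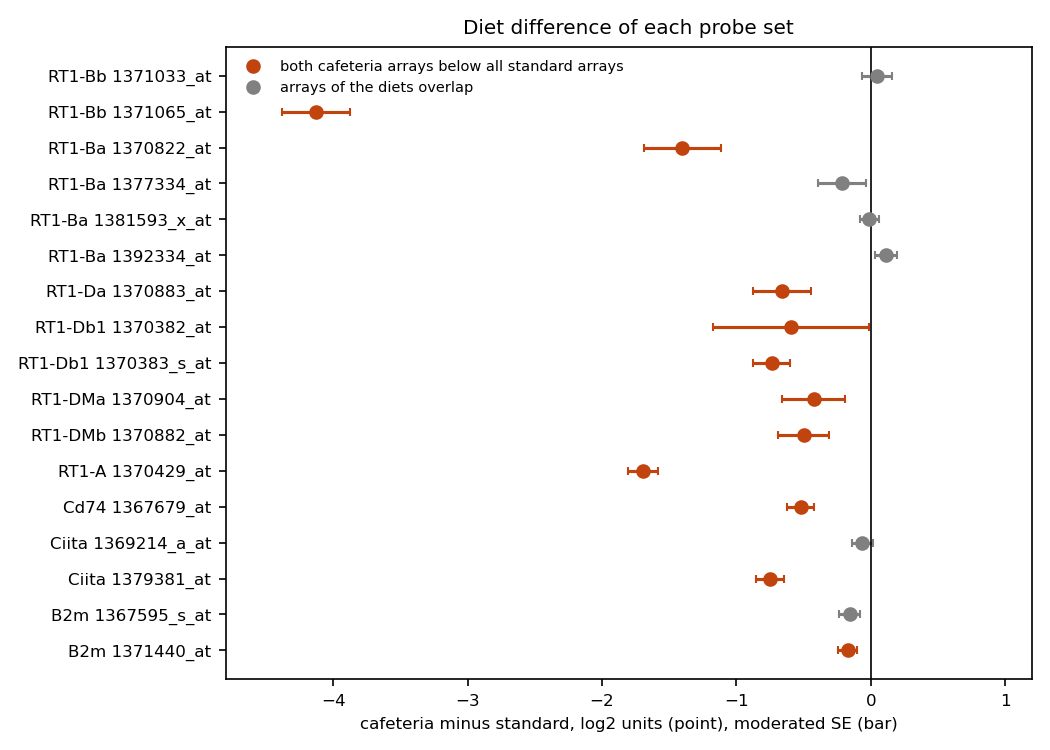
Difference in mean log2 expression, cafeteria minus standard (horizontal axis), for each of the 17 probe sets, with the moderated SE as bars. Points in orange have both cafeteria arrays below all standard arrays, as 11 of 17 do, and RT1-Bb and RT1-Ba each have probe sets on either side of that division.

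The class I genes were set beside class II. RT1-A, a classical class I heavy chain, read 5.97 and 5.86 on the cafeteria arrays, against 7.72, 7.68 and 7.42 on the standard arrays, and the groups did not overlap. The difference was -1.70 ± 0.11, or 3.24-fold lower, from the only probe set that carried the RT1-A symbol alone. Its identifier was not found in the RefSeq gene table, so the symbol is that of the platform annotation. RefSeq lists RT1-A as a synonym of RT1-A3, and the 2 probe sets that carry the RT1-A3 symbol alone did not read lower. One read 5.62 and 6.21 on the cafeteria arrays, against 6.09, 4.28 and 5.78 on the standard arrays, a difference of 0.53 ± 0.75 (plain SE) with overlap, and the other, under the filter, differed by 0.059 ± 0.070 (plain SE). A brighter probe set annotated to both RT1-A3 and RT1-A2 did read lower. It read 11.19 and 10.66 on the cafeteria arrays, against 11.86, 11.60 and 11.68 on the standard arrays. The difference was -0.79 ± 0.22 (plain SE), with no overlap.

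B2m, the light chain that all class I molecules share, showed smaller differences. Probe set 1371440_at read 11.75 and 11.74 in cafeteria samples, against 11.83, 12.02 and 11.90 in standard samples, a difference of -0.17 ± 0.068 with no overlap. Probe set 1367595_s_at differed by -0.16 ± 0.080, and there standard replicate 3 and cafeteria replicate 1 shared the value 13.37. The B2m probe sets differed from each other in their diet difference by 0.016 ± 0.083.

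Agreement of the RT1 probe sets with Cd74 and Ciita was measured by subtracting the log2 values array by array and comparing the diets, with a plain SE. Of the 12 RT1 probe sets, 10 had a difference of the same sign as Cd74, and 10 of the same sign as Ciita 1379381_at. That sign was negative, as for 46.9% of all non-control probe sets. The genes were chosen with this contrast known, so nothing is read from these counts. Among the 10, RT1-Ba 1381593_x_at, at -0.0095, turned to 0.045 under quantile and 0.006 under cyclic loess normalization. For Ciita 1369214_a_at, whose own difference was near 0, the count of shared signs was also 10 but 3 without cafeteria replicate 1. Measured against Cd74, agreement in size was closest for the DM and D genes. RT1-DMb differed from Cd74 by 0.022 ± 0.12, RT1-DMa by 0.096 ± 0.23 (0.27 without standard replicate 1 and -0.034 without standard replicate 2), RT1-Da by -0.14 ± 0.15 and RT1-Db1 1370383_s_at by -0.22 ± 0.11. The dim RT1-Db1 1370382_at differed from Cd74 by -0.073 ± 0.64, an SE too wide to rate its agreement. Its centred profile lay at a root mean square distance of 0.55 from that of Cd74. Set against Ciita 1379381_at, RT1-Db1 1370383_s_at differed by 0.013 ± 0.14 and RT1-Da by 0.090 ± 0.16. Set against Ciita 1369214_a_at the order was another: RT1-Ba 1381593_x_at differed by 0.053 ± 0.10 and RT1-Bb 1371033_at by 0.11 ± 0.11, against -0.44 ± 0.21 for RT1-DMb, -0.60 ± 0.23 for RT1-Da and -0.68 ± 0.16 for RT1-Db1 1370383_s_at.

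Most B gene probe sets and RT1-A departed further from Cd74 in size. RT1-Bb 1371065_at differed from Cd74 by -3.61 ± 0.27, RT1-A by -1.17 ± 0.050 and RT1-Ba 1370822_at by -0.88 ± 0.24, all towards a lower cafeteria reading. RT1-Bb 1371033_at departed the other way, by 0.57 ± 0.047, as did RT1-Ba 1392334_at, by 0.64 ± 0.17, and 1381593_x_at, by 0.51 ± 0.16. RT1-Ba 1377334_at differed from Cd74 by 0.31 ± 0.26. The probe sets of RT1-Bb and RT1-Ba therefore lay on opposite sides of Cd74.

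Between the regulators, Ciita 1379381_at differed from Cd74 by -0.23 ± 0.040, and Ciita 1369214_a_at by 0.46 ± 0.093. As profiles over the 5 arrays, the RT1 probe sets within a root mean square distance of 0.2 log2 units of Cd74 were RT1-DMb at 0.10, RT1-Db1 1370383_s_at at 0.14 and RT1-Da at 0.14. The largest distance was 1.78, for RT1-Bb 1371065_at.

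**Figure D3:**
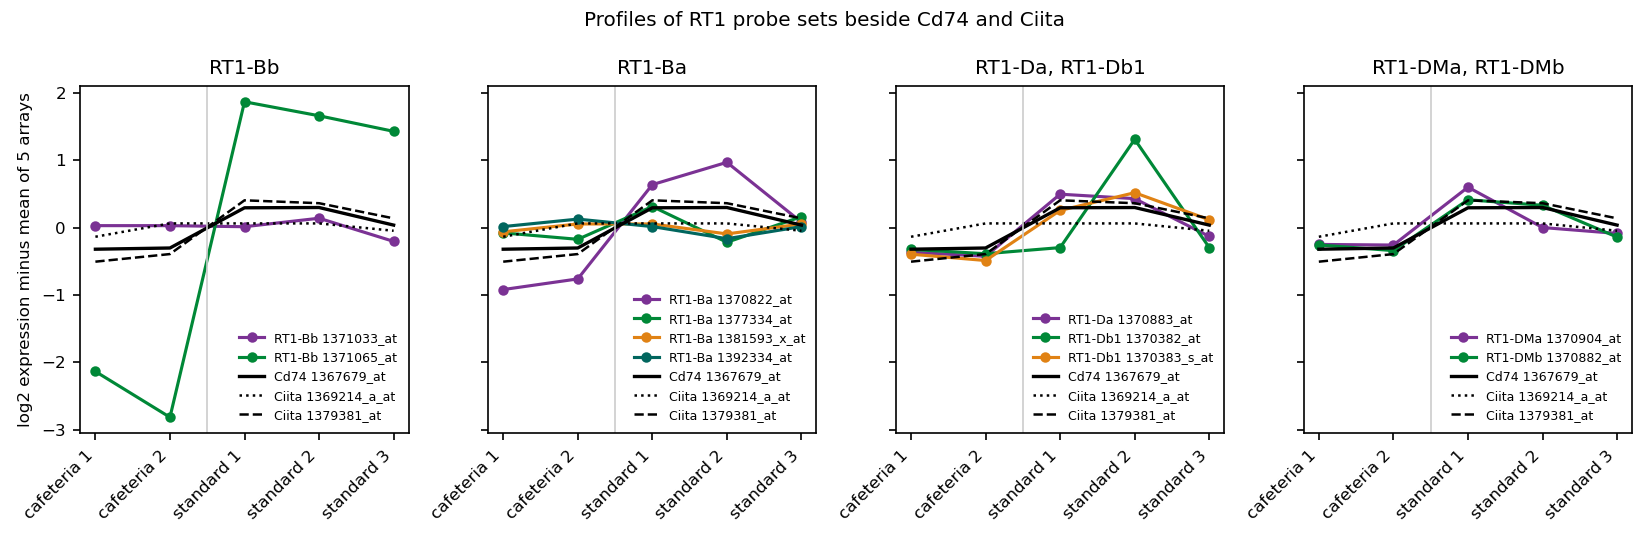
Log2 expression minus the probe set's mean over 5 arrays (vertical axis) on each array, cafeteria left of the grey line and standard right of it, for RT1 probe sets (colours) beside Cd74 (solid black) and the Ciita probe sets (dashed and dotted black). RT1-DMb, RT1-Da and RT1-Db1 1370383_s_at run with Cd74 at distances of 0.10 to 0.14, while RT1-Bb 1371065_at lies 1.78 away.

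The genes whose profile lay nearest to that of Cd74 over the 5 arrays, among named probe sets that passed the filter, were Gbp4, a guanylate-binding protein of the interferon-induced family, at a distance of 0.030, Ehd4, an endosomal trafficking protein, at 0.031, Ldlrad3 at 0.043, Msl3l2 at 0.056 and the junction protein Jam3 at 0.056. Gbp4 read 5.54 and 5.52 on the cafeteria arrays, against 6.13, 6.10 and 5.81 on the standard arrays. Nearest to RT1-Ba 1370822_at were Il2rg, the shared chain of several cytokine receptors, at 0.24, the immunoproteasome subunit Psmb8 at 0.25, Tnfrsf14 at 0.25, RT1-A at 0.26 and Fyb1 at 0.26. For RT1-Bb the rule took the brighter probe set, 1371033_at, whose neighbours were Foxs1, Det1, Cct6a, Phf20 and Dnajc24 at 0.010 to 0.017, all with diet differences of 0.032 to 0.073. Likeness over 5 arrays is a description of these arrays.

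The choice of genes did not rest on the spread within each diet. Between the cafeteria arrays, replicate 1 was higher than replicate 2 for 7 of 14 class II probe sets, with a median signed gap of 0.0042 and a range of -0.20 to 0.68, the last from RT1-Bb 1371065_at. Among the 9 class II probe sets whose diets did not overlap, replicate 1 was higher for 6, with a median signed gap of 0.061. The median size of the gap, sign aside, was 0.095 for class II and 0.108 over all non-control probe sets. Markers of the cells that carry class II were mostly higher on cafeteria replicate 1. The gap was positive for 10 of 12 macrophage markers with a median of 0.38, for 5 of 6 dendritic cell markers with a median of 0.30, and for 6 of 7 B cell markers with a median of 0.70. T cell markers had a positive gap for 8 of 10, with a median of 0.40. Other lists went the other way: the gap was positive for 0 of 7 endothelial markers, with a median of -0.26, and for 1 of 9 adipocyte markers, with a median of -0.17. Over all non-control probe sets it was positive for 13031 of 31042. These gaps come from 1 array against 1 array and have no replicate check.

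Between the standard arrays, replicate 3 was strictly the lowest for 10 of 14 class II probe sets, where 29.2% of all non-control probe sets had it lowest. The median range over the standard arrays was 0.42 for class II probe sets and 0.16 over all. Standard replicate 3 was also the lowest standard array for 9 of 12 macrophage markers, 4 of 6 dendritic cell markers, 5 of 7 B cell markers and 7 of 10 T cell markers. Over all 17 probe sets the median diet difference was -0.61 without standard replicate 3 and -0.39 without standard replicate 1.

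**Figure D4:**
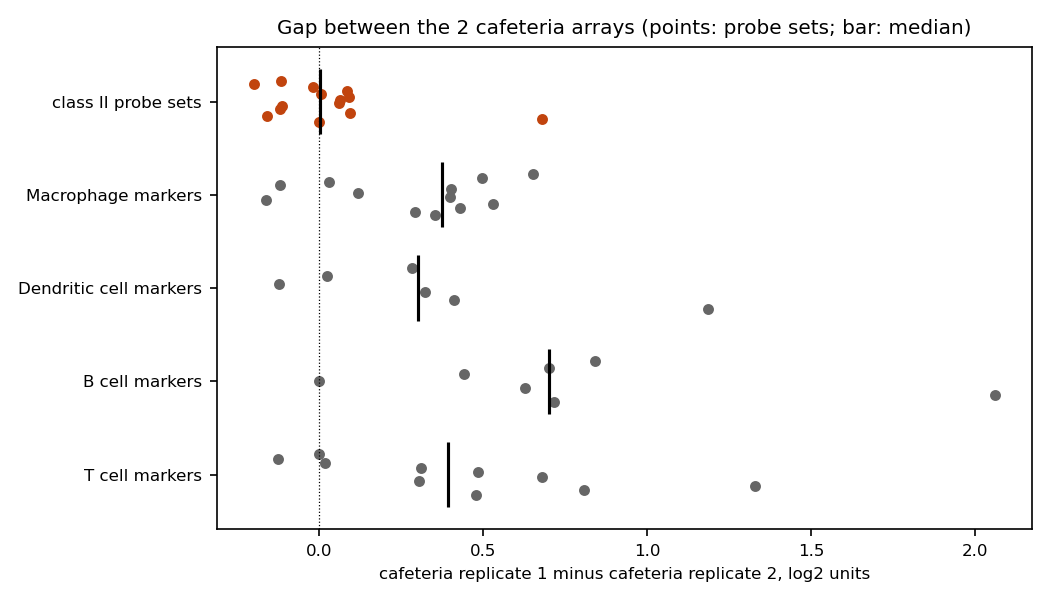
Cafeteria replicate 1 minus cafeteria replicate 2 in log2 units (horizontal axis) for the 14 class II probe sets and for markers of 4 immune cell types, 1 probe set per gene; vertical bars are medians. The class II median is 0.0042, or 0.061 over the 9 class II probe sets whose diets do not overlap, and the marker medians run between 0.30 and 0.70.

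The same cell type lists were read by diet beside the class II genes. At an unadjusted p under 0.05 (limma) there were 0 macrophage, 0 B cell and 0 T cell markers and 1 dendritic cell marker. At the same level, in either direction, there were 2 of 5 lymph node stroma, 3 of 7 endothelial and 5 of 9 adipocyte markers. Over all genes 6.88% were lower and 6.73% higher at that level, and 47.5% had a lower mean at any p. All 12 macrophage markers had a lower mean in cafeteria samples, and the list averaged 9.63 and 9.34 on the cafeteria arrays, against 9.53 to 9.89 on the standard arrays, which overlap. Its mean difference was -0.27, and all its members, like those of the dendritic cell list, passed the filter. The 6 dendritic cell markers measured averaged 7.01 and 6.65 in cafeteria samples, against 6.98 to 7.29 in standard samples, with 5 lower and a mean difference of -0.34. The 7 B cell markers averaged 6.12 and 5.35 in cafeteria samples, against 5.88 to 6.21 in standard samples, with 5 lower and a mean difference of -0.32, and Blk and Cr2 stayed under the filter. The 10 T cell markers averaged 5.19 and 4.76 in cafeteria samples, against 5.22 to 5.63 in standard samples, with 9 lower and a mean difference of -0.47, and Cd8b and Trat1 stayed under the filter. The lymph node stroma list of 5 genes averaged 8.03 and 7.37 in cafeteria samples, against 8.32 to 8.44 in standard samples, a mean difference of -0.70 that was -0.25 without Cxcl13. Cxcl13, a chemokine of B cell follicles, read 11.10 and 8.24 on the cafeteria arrays, against 12.33, 12.28 and 11.83 on the standard arrays, while Ccl21 differed by 0.079 and Madcam1 by -0.015. The 7 endothelial markers averaged 8.25 and 8.71 in cafeteria samples, against 8.89 to 9.004 in standard samples, with all 7 lower. The part of these cells in the class II readings was not tested.

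The other genes of the route were taken from 5 lists with 43 genes on the array, of which 41 passed the filter, each represented by its brightest probe set. No gene passed an adjusted p of 0.05 (limma). At an unadjusted p under 0.05, 10 were lower and 0 higher in cafeteria samples, 24.4% of those tested, where 6.88% of all genes were lower and 6.73% higher. The lists were chosen with earlier results of these data known, so nothing is read from that gap, here or list by list below. Leaving out a standard array gave 5 such genes without standard replicate 1, 4 without standard replicate 2 and 9 without standard replicate 3. A test without moderated variance gave 3.

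The factors that build the promoter complex on which Ciita docks showed 0 of 7 at that level in either direction, with a median difference of -0.064 beside 0.008 over all genes. Creb1 differed by -0.25 ± 0.15, the NF-Y subunit Nfyc by -0.16 ± 0.083, and the RFX subunit Rfxap by -0.14 ± 0.077 (limma, adjusted p of 0.504, 0.4998 and 0.502).

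On the interferon-gamma route to Ciita, 3 of 8 tested genes were lower and 0 higher, at a median difference of -0.065 over the 9 genes on the array. Irf1, a transcription factor that acts on the inducible Ciita promoter, averaged 8.48 ± 0.04 in cafeteria samples and 9.10 ± 0.11 in standard samples (SD, n = 2 and n = 3), a difference of -0.62 ± 0.076 (limma, adjusted p = 0.222). Ifngr1, the ligand-binding receptor chain, differed by -0.29 ± 0.059 (limma, adjusted p = 0.276). Irf8, a transcription factor of the macrophage and dendritic lineages, differed by -1.04 ± 0.30 (limma, adjusted p = 0.321). Ifng itself read 2.94 to 2.95 on every array, under the filter.

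Of the genes that load class II with peptide or remove it from the surface, 1 of 9 was lower and 0 higher, with a median difference of -0.006. That gene was Ifi30, a thiol reductase of the endosome, at -0.35 ± 0.12 (limma, adjusted p = 0.364). Ctss, the protease that trims the invariant chain, differed by -0.55 ± 0.23 (limma, adjusted p = 0.421), and Marchf1, the ligase that sends class II to degradation, by -0.55 ± 0.31 (limma, adjusted p = 0.497).

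For class I loading and the immunoproteasome, 6 of 13 genes were lower and 0 higher, with a median difference of -0.17. Psmb8, a catalytic subunit of the immunoproteasome encoded in the MHC, averaged 8.04 ± 0.23 in cafeteria samples and 9.32 ± 0.18 in standard samples (SD, n = 2 and n = 3), a difference of -1.28 ± 0.15 (limma, adjusted p = 0.222). Tapbp, which bridges class I to the peptide transporter, differed by -0.47 ± 0.14, and the proteasome activator subunit Psme1 by -0.28 ± 0.081 (limma, adjusted p of 0.321 and 0.336). Costimulatory and adhesion genes showed 0 of 4 lower and 0 higher, with Cd86 at -0.16 ± 0.22, Cd40 at 0.16 ± 0.15 and Cd48 at -0.069 ± 0.052.

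**Figure D5:**
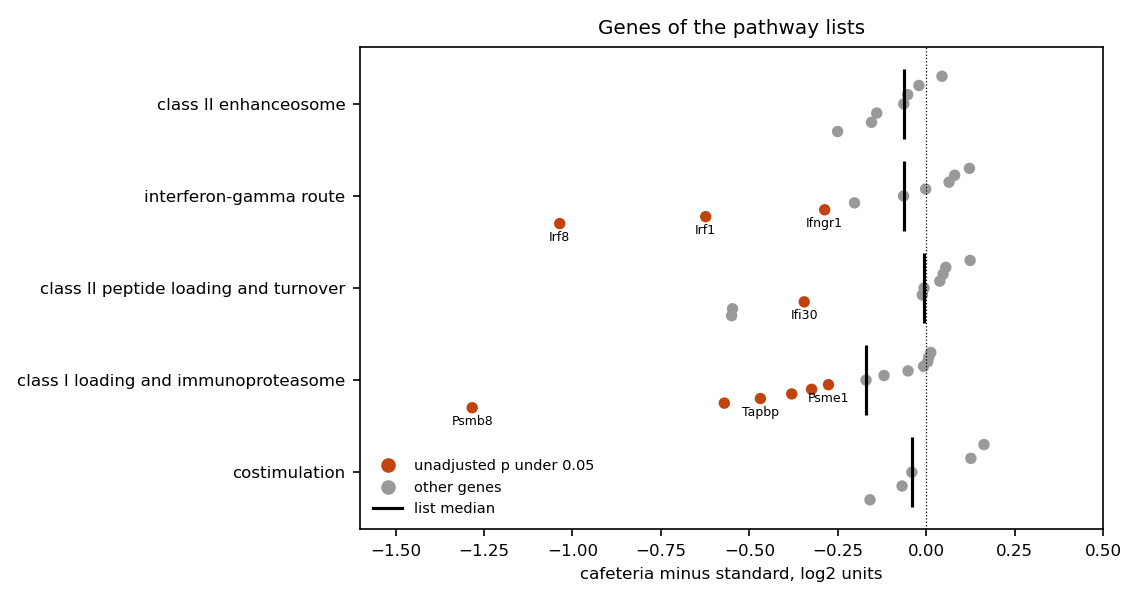
Difference in mean log2 expression, cafeteria minus standard (horizontal axis), for genes of the 5 lists, 1 probe set per gene, with list medians as bars. Orange points have an unadjusted p under 0.05, 10 in all, and every one of them lies below 0; Psmb8 reaches -1.28 and Irf8 -1.04.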

How the data were processed

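Expression was measured on Affymetrix rat arrays, 1 sample per array. The log2 values are those the authors deposited, 1 per probe set, and RMA and the affy package, without versions, are named in the submitters' processing notes. RMA makes array distributions alike, so a shift of most transcripts together can be hidden. Between pairs of arrays 11.7% to 14.7% of probe sets held identical values, and none were merged. No label or header names a batch of the arrays.

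Here 57 control probe sets were left out. Diets were compared with limma 3.58.1 in R 4.3.3 (lmFit, eBayes, cafeteria minus standard, two-sided, Benjamini-Hochberg) on the 21729 probe sets whose mean exceeded the 30th percentile. Residual degrees of freedom were 3, and the prior added 1.50. SEs of the 17 probe sets come from the same model without the filter. P-values measure the spread between these samples. Symbols came from GEO's platform annotation: 20826 probe sets had 1 symbol, 436 several and 9780 none. The members, gene lists and alternatives were chosen with earlier results of these data known. Named from each list were the 3 genes with the smallest p, and 5 nearest profiles for Cd74, RT1-Ba and RT1-Bb. The fit was run on simulated data with independent noise, and the check made was only that large planted differences were recovered on average. That does not test the calls on the samples used here. Alternatives were other filters, normalizations, variance models, array weights, a replicate block, other probe set choices and leaving out each array. Python 3.11.15 with matplotlib 3.10.9 made the figures.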

Additional observations from a re-analysis of the deposited data

How the results depend on the processing

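Under every alternative run, 0 probe sets had an adjusted p under 0.05. The count at an unadjusted p under 0.05, 2754, ran between 1986 and 4174 when 1 array was left out, the highest without cafeteria replicate 1. The list genes at that level, 10, ran between 3 and 9 when 1 array was left out, and were 3 without moderated variance; leaving out arrays removes samples from the fit, and the cause was not tested further. The median difference of the 17 probe sets kept its sign under every alternative, at -0.39 to -0.61. Of 136 single differences under alternatives, 132 moved by less than the spread between replicates, 4 moved by more and 9 changed sign. Leaving out 1 of the 3 standard arrays cannot move a difference by that spread. The replicate block gave the same differences as leaving out standard replicate 3. By this measure those settings therefore say nothing on stability. All 4 that moved came from leaving out a cafeteria array. The replicate numbers could pair only 2 of the samples per diet, with correlations of deviations of 0.079 and -0.037; with the replicate block 2206 probe sets and 13 list genes had an unadjusted p under 0.05, and the median difference was -0.61. Alternatives chosen after seeing the data were the signs shared with Cd74 and Ciita and the RT1-DMa to Cd74 gap without each array, and the lymph node stroma mean without Cxcl13. Of 12 RT1 probe sets, the number with the sign of Cd74 or of Ciita 1379381_at was 9 to 10 when 1 array was left out; for Ciita 1369214_a_at it was 3 to 10, the lowest without cafeteria replicate 1, where that probe set's own difference turned to 0.036. Another, the number of probe sets whose diets do not overlap without standard replicate 1, cannot fall when a standard array is left out, so it says nothing on stability.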

Other observations

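Other RT1 genes on the array, of the class I type, were covered by 19 probe sets with a single symbol for 11 genes. Class I copies are close in sequence, so a probe set may bind several of them and its symbol is uncertain. Of these, 14 had a lower mean in cafeteria samples, 6 had both cafeteria arrays below all standard arrays and 2 had both above, where 10.8% and 12.4% of all non-control probe sets did. None passed an adjusted p of 0.05 (limma), and 4 of 17 tested had an unadjusted p under 0.05 in either direction, where 6.62% of all tested were lower and 6.05% higher. The lowest was RT1-T24-4, at 7.81 and 6.27 on the cafeteria arrays against 9.48, 9.82 and 9.19 on the standard arrays, a difference of -2.46 ± 0.62 (plain SE).

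Single standard arrays stood apart for some of these genes, and those given here were picked after their values were seen. RT1-CE10 read 10.92 and 10.53 on the cafeteria arrays and 10.29, 7.58 and 10.36 on the standard arrays. RT1-CE12 read 12.32 and 11.98 on the cafeteria arrays and 11.92, 10.37 and 11.91 on the standard arrays, so standard replicate 2 was low for both genes. RT1-N2 read 4.07 and 4.22 on the cafeteria arrays and 6.75, 4.14 and 4.56 on the standard arrays, where the high value is that of the array with acinar transcripts.

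A further 6 probe sets carried several RT1 symbols, RT1-A among them for 2. Of these 2, the probe set annotated to RT1-A, RT1-CE5 and others read 7.41 and 7.23 on the cafeteria arrays against 7.57, 7.89 and 7.65 on the standard arrays, a difference of -0.38 ± 0.14 (plain SE). The one annotated to RT1-A, RT1-A1 and RT1-CE16 read 5.80 and 5.64 on the cafeteria arrays against 5.50, 5.65 and 5.64 on the standard arrays, a difference of 0.12 ± 0.086 (plain SE). A probe set annotated to RT1-A2 and RT1-A1 read 4.92 and 4.80 on the cafeteria arrays against 4.65, 4.71 and 4.62 on the standard arrays. Its difference was 0.20 ± 0.055 (plain SE), with both cafeteria arrays above all standard arrays.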
